A study of Homo sapiens with 2 samples.

Results

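The genes of the proteasome were followed through a map of transcription starts in HUDEP-2, a wild-type, immortalised human cell line with the character of erythroid progenitors. The members are the 50 protein-coding genes of the RefSeq gene table whose symbols begin with PSMA, PSMB, PSMC, PSMD, PSME, PSMF or PSMG, of 19821 protein-coding genes in all. They were chosen by symbol and not by any measured value. Of the 50, 31 encode constitutive subunits of the core, base and lid, and the others encode tissue-specific subunits, activators, an inhibitor and assembly chaperones. PSMC3IP and PSME3IP1 match the symbols although their products are not subunits. The members lie on 17 chromosomes, with 8 on chromosome 14 and 8 on chromosome 17.

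The proteasome is the main protease of the cytosol and nucleus and degrades proteins that carry ubiquitin. Its barrel-shaped core is built from outer rings of alpha subunits, which form the gate, and inner rings of beta subunits, which hold the active sites. A regulatory particle caps the barrel, and its base of ATPases unfolds substrates while its lid removes ubiquitin. In immune cells, and in other cells exposed to interferon, inducible beta subunits replace the constitutive ones. Maturing red cells use ubiquitin and the proteasome to remove much of their earlier proteome.

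PRO-cap, a nuclear run-on assay that reads nascent RNA from its capped 5′ end, was performed on 2 biological replicates of this 1 group, with no treatment or second genotype. The deposited lists hold 26395 called start positions, each 1 base wide in hg38, of which 13229 run forward and 13166 run in reverse. No call has a read count, a strength or a replicate attached, so that depth is unknown, and transcription below the unknown cut-off of the caller leaves no call. Intervals are 95% Wilson intervals, which cover only counting error. For the labelled cell type, 9 of 9 erythroid marker genes had a start call, among them GATA1, KLF1 and ALAS2, whereas 0 of 14 marker genes of lymphoid, myeloid, megakaryocytic and stem cells had one.

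A start call was a forward call within 500 bp of the lower coordinate of a gene or a reverse call within 500 bp of the upper coordinate, so that it points into the gene. Of the 50 members, 35 had a start call (70.0%, 56.2 to 80.9), whereas 41.4% of all protein-coding genes had one. All 6 ATPase genes of the base were called, and 1 of 5 genes of inducible or tissue-specific core subunits was. The table of promoters gives a strand and annotated starts for 44 members, and 34 of these (77.3%, 63.0 to 87.2) had a call of their own strand within 500 bp of an annotated start, whereas 47.0% of all protein-coding genes in that table had one. Counted by a gene end or an annotated start, 39 of 50 members were called (78.0%, 64.8 to 87.2), against 45.3% of all protein-coding genes. A call of either strand in the gene or within 500 bp of it was present for 45 of 50 members (90.0%, 78.6 to 95.7), against 52.6% of all protein-coding genes. No test was run on these shares, since the members were chosen with earlier results of these data known.

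**Figure D1:**
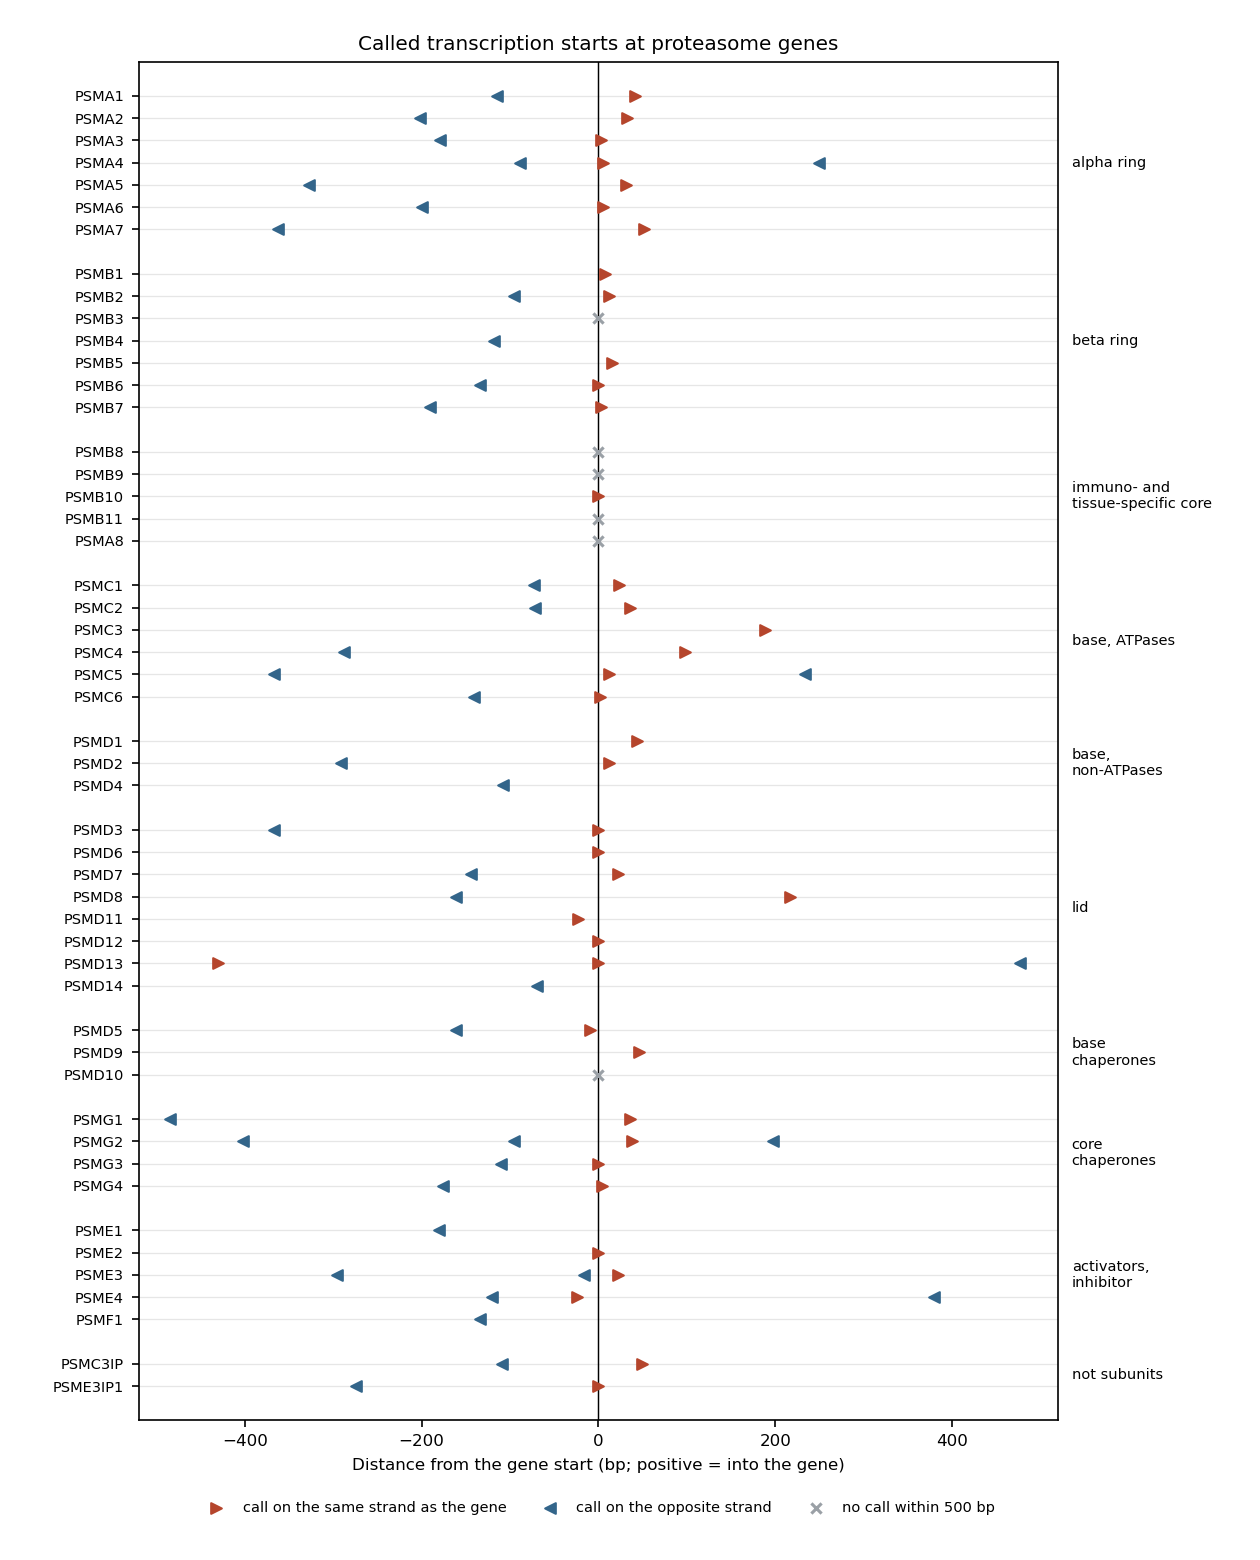
Each row is a proteasome gene, and the x axis gives the distance in bp of every call within 500 bp of its start, positive into the gene. Red triangles are calls on the strand of the gene, blue triangles calls on the opposite strand, and grey crosses genes with no call in the window. The start is the annotated start nearest to a call, or the gene end for 6 genes without a strand in the promoter table. The 40 calls of the same strand belong to 39 genes and lie mostly just inside the start, and the 40 opposite calls lie mostly upstream.

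**Figure D2:**
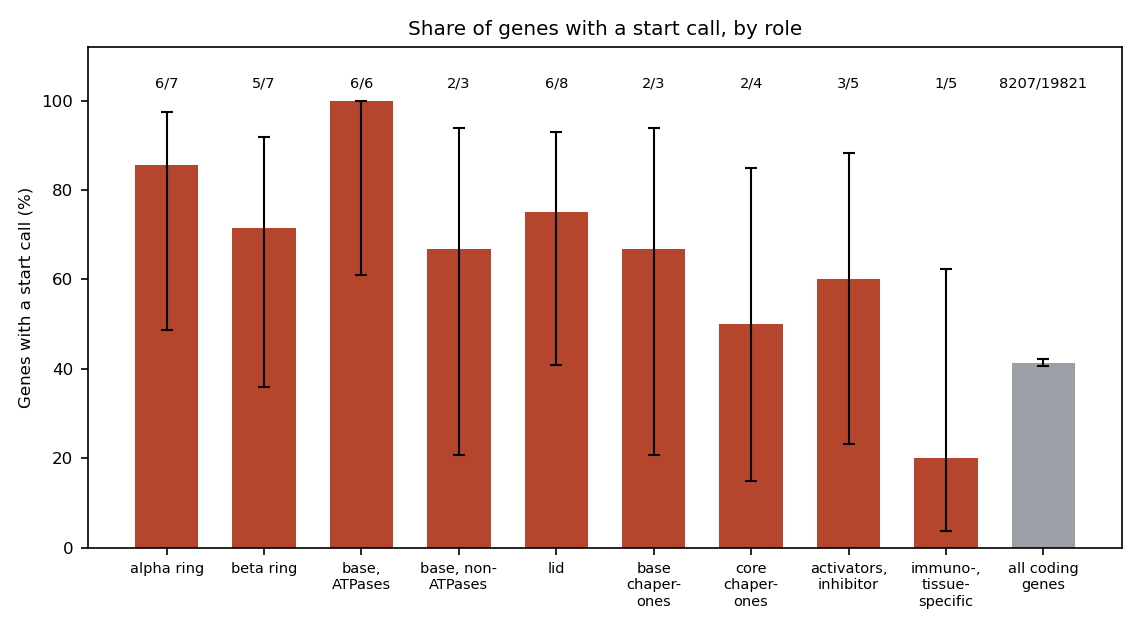
Bars give the percentage of genes with a start call at a gene end for 9 roles in the proteasome and, at the right, for all protein-coding genes, with 95% Wilson intervals and the counts above. The ATPases of the base stand highest with 6 of 6, and the inducible and tissue-specific core genes stand lowest with 1 of 5.

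In the alpha ring, whose subunits frame the entrance of the core, 6 of 7 genes had a start call (85.7%, 48.7 to 97.4). The share of all protein-coding genes was 41.4%. PSMA1 was called at chr11:14643663, 1 bp outside its gene end, and again at chr11:14520345, 41 bp after an annotated start that lies 123276 bp inside the gene. The outer call had an opposite-strand call 140 bp upstream that starts PDE3B, a phosphodiesterase gene, and the inner one had a partner 156 bp upstream that starts no gene. PSMA2 was called at chr7:42932142, 32 bp inside its end, with the start of the mitochondrial ribosomal protein gene MRPL32 234 bp upstream on the other strand. PSMA3 was called at chr14:58244846, 3 bp inside its end, with an opposite call 182 bp upstream. PSMA4 was called at chr15:78540449, 44 bp inside its end and 5 bp after an annotated start, with opposite calls 94 bp upstream and 244 bp downstream. PSMA5 was called at chr1:109426417, 31 bp inside, and its nearest opposite call upstream was 358 bp away. PSMA7 was called at chr20:62143343, 51 bp inside, with an opposite call 413 bp upstream that starts SS18L1. PSMA6 had no call at its gene end, but a call at chr14:35292387, 5 bp after an annotated start 13824 bp inside the gene, with a partner 205 bp upstream. With that start, all 7 alpha genes were called, and 4 of the 6 calls at gene ends had an opposite-strand call within 300 bp upstream.

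Promoters of PSMA1 and PSMA2 are printed as the first of the alpha ring by alphabet and as a pair of genes that start head to head. They run from 150 bp before to 50 bp after the annotated start, 5′ to 3′ on the strand of the gene, and come from RefSeq, GRCh38.p14. PSMA1 is chr11:14520337-14520536 on the reverse strand, at the inner start, and PSMA2 is chr7:42932125-42932324 on the reverse strand. In these and the other 200 bp promoters, capitals mark the called base and each match to the motifs searched other than the GC box, which are spelled out with their counts further on. In PSMA1 the capitals are an ETS core 128 bp before the annotated start and the called G. In PSMA2 they are a CCAAT box 84 bp before the start, a YY1 match from 13 bp after it and the called A.
PSMA1: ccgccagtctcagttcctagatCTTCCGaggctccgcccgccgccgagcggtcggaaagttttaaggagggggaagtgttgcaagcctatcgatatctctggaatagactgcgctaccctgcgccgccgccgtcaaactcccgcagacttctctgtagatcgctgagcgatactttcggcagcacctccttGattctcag
PSMA2: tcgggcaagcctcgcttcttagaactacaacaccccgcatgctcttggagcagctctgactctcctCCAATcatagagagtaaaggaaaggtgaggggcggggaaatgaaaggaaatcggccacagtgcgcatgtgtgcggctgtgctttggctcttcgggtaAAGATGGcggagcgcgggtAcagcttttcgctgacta

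In the beta ring, which holds the proteolytic sites of the core, 5 of 7 genes had a start call. PSMB1 was called at chr6:170553300, 7 bp inside its end, and it was the sole call of the gene. PSMB2 was called at chr1:35641514, 12 bp inside, with an opposite call 108 bp upstream. PSMB6, the subunit with caspase-like activity, was called at chr17:4796163, 1 bp outside its end, with a partner at 133 bp. PSMB7, with trypsin-like activity, was called at chr9:124415439, 3 bp inside, with a partner at 193 bp. PSMB5, with chymotrypsin-like activity and the main target of bortezomib, was called at chr14:23034885, 335 bp inside its gene end but 15 bp after an annotated start, with no other call in or near the gene. PSMB5 was thus the member deepest inside the 500 bp window, and the nearest one beyond it was PSMD6 of the lid, called 512 bp inside its end. PSMB3 had no call at all, and PSMB4 had only an opposite-strand call 118 bp outside its start. The 3 genes of active sites in the constitutive core were therefore all called. Genes of beta subunits without activity were divided, with PSMB1 and PSMB2 called and PSMB3 and PSMB4 uncalled. The interval of the beta ring, 35.9 to 91.8%, includes the 41.4% of all protein-coding genes. Taken as 1 unit, the constitutive core had start calls at 11 of 14 genes (78.6%, 52.4 to 92.4).

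PSMB2 is printed as the first of the beta ring by alphabet, chr1:35641477-35641676 on the reverse strand. Its CCAAT box, in capitals, begins 2 bp before the annotated start, and the called G follows 12 bp after that start.
PSMB2: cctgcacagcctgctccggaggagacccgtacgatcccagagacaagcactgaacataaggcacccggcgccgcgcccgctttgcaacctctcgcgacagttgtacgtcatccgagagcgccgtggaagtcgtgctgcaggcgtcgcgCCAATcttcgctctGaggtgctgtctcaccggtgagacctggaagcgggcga

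Among inducible and tissue-specific core genes, 1 of 5 had a start call (20%, 3.62 to 62.4), an interval that includes the 41.4% of all protein-coding genes. PSMB10, the inducible counterpart of PSMB7, was called at chr16:67936851, 1 bp outside its end, with no opposite-strand call within 1000 bp upstream. The gene held 2 further calls, an antisense one 927 bp and a sense one 1176 bp inside. PSMB8 and PSMB9, the other inducible beta subunits, had no call of either strand in the gene or near it. PSMB11, the beta subunit of the thymic cortex, and PSMA8, the alpha subunit of the testis, also had none. A check of position limits what can be read from PSMB8 (chr6:32840717-32844679) and PSMB9 (chr6:32854192-32859851). The calls nearest to PSMB8 on its 2 sides were 5.08 Mb apart, and PSMB9 lies in the same gap. Alternate sequences of chromosome 6 carried 11 calls, and whether starts of these genes were placed there was not tested. The absence of calls at PSMB8 and PSMB9 cannot be told apart from this gap, whereas PSMB11 and PSMA8 lie outside it. Without PSMB8 and PSMB9, 35 of 48 members had a start call.

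The promoter of PSMB10, chr16:67936801-67937000 on the reverse strand, is shown because it was the only called gene of its group. It held no match to any motif searched, so that the called C is its only capital.
PSMB10: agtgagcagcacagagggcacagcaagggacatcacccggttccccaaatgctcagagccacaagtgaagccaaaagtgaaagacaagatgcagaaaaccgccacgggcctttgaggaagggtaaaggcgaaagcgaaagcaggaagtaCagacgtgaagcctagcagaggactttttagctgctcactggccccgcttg

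In the base of the regulatory particle, all 6 ATPase genes had a start call (100%, 61 to 100), against 41.4% of all protein-coding genes. PSMC6 was called at chr14:52707202, 2 bp inside its end, with a partner 143 bp upstream, and PSMC1 at chr14:90256576, 23 bp inside, with a partner at 96 bp. PSMC2 was called at chr7:103347679, 155 bp inside its end and 36 bp after an annotated start, with a partner at 108 bp. PSMC5 was called at chr17:63827443, 12 bp inside, with an opposite call 221 bp downstream. PSMC5 has a second annotated start 290 bp inside its end, and FTSJ3, an RNA methyltransferase gene that runs the other way, starts 58 bp upstream of that one. The downstream opposite call stood 57 bp upstream of the same start, and a further opposite call, 379 bp upstream of the PSMC5 call, starts no gene of the table. PSMC4 was called at chr19:39971263, 98 bp inside, and an opposite call 386 bp upstream starts LOC124904720. PSMC3 was called at chr11:47426251, 188 bp inside its end, and this was its sole call. Thus the ATPase genes were all called, but 3 of 6 calls had no partner within 300 bp.

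The other base genes encode the scaffold subunits PSMD1 and PSMD2 and the ubiquitin receptor PSMD4. PSMD1 was called at chr2:231056911, 44 bp inside its end, as the sole call of the gene. PSMD2 was called at chr3:184299253, 12 bp inside, with an opposite call 303 bp upstream, just beyond the limit for a partner. PSMD4 had 1 call, on the reverse strand 108 bp outside its lower end, and no start call. The promoter table gives no strand for PSMD4, so that this call is placed by the gene end only.

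PSMC1 and PSMD1 are printed as the first ATPase and the first other base gene by alphabet, both on the forward strand, at chr14:90256403-90256602 and chr2:231056717-231056916. PSMC1 holds ETS cores at 45 and 24 bp before and 10 bp after the annotated start, a GATA match 52 bp before it, TATA matches 149, 147 and 127 bp before it, and a YY1 match 42 bp after it. The called C of PSMC1 lies between the third ETS core and the YY1 match. PSMD1 holds an ETS core 105 bp before the start and an antioxidant response element from 39 bp after it. The called G of PSMD1, 44 bp after the start, is a base of that element and so is not set apart by case.
PSMC1: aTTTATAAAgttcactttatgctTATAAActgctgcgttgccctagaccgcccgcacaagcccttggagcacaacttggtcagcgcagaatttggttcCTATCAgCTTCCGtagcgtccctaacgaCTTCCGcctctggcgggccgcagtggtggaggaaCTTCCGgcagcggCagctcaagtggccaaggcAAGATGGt
PSMD1: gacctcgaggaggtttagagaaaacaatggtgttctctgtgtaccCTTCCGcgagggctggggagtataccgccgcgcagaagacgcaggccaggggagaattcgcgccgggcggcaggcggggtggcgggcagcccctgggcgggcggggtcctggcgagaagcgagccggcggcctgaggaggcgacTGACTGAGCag

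In the lid, which carries the deubiquitinase of the regulatory particle, 6 of 8 genes had a start call (75%, 40.9 to 92.9). The interval of the lid includes the 41.4% of all protein-coding genes. PSMD12 was called at chr17:67366577 and PSMD13 at chr11:236976, each exactly at the gene end from which the gene is transcribed. PSMD13 was the only member with more than 1 start call (2.86%, against 15.4% of all protein-coding genes with a start call), the second lying 430 bp outside the gene. PSMD3 was called at chr17:39980806, 1 bp outside its end, PSMD7 at chr16:74296836, 22 bp inside, and PSMD11 at chr17:32444487, 23 bp outside. PSMD8 was called at chr19:38374787, 216 bp inside, the largest distance in the lid. Only PSMD7, which pairs with the deubiquitinase subunit, had a partner within 300 bp, at 166 bp. PSMD3 and PSMD8 had opposite calls 366 and 377 bp upstream, and PSMD11 and PSMD12 had no other call. PSMD6 was called at chr3:64023495, 1 bp before an annotated start but 512 bp inside its gene end. PSMD14, the deubiquitinase itself, had only an opposite call 70 bp outside its start. Base and lid together had start calls at 14 of 17 genes (82.4%, 59.0 to 93.8), and each of the 17 had a call of some kind.

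PSMD11 is printed as the first of the lid by alphabet, chr17:32444360-32444559 on the forward strand. The called C stands 23 bp before the annotated start, and a YY1 match begins 11 bp after it.
PSMD11: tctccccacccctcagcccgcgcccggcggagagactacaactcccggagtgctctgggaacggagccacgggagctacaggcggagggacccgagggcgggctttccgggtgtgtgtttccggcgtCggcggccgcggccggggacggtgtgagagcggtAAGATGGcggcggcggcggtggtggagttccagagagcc

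Assembly chaperones, which build the particle and leave it, had start calls at 4 of 7 genes (57.1%, 25 to 84.2). This interval includes the 41.4% of all protein-coding genes. For assembly of the base, PSMD5 was called at chr9:120842932, 10 bp outside its end, with a partner at 151 bp that starts CUTALP, and PSMD9 at chr12:121888836, 46 bp inside, with no other call. PSMD10, known as gankyrin, had a single antisense call 2714 bp inside the gene and no start call. For assembly of the core, PSMG3 was called at chr7:1570033, 1 bp outside its end, with a partner at 109 bp that starts PSMG3-AS1. PSMG1 was called at chr21:39183415, 99 bp inside its end and 36 bp after an annotated start, with an opposite call 520 bp upstream. PSMG2 and PSMG4 had no call at a gene end, but calls 38 and 4 bp after annotated starts that lie 44304 and 4543 bp inside. The PSMG2 call, at chr18:12703080, had a partner at 134 bp that starts CEP76, a centrosomal protein gene, and the PSMG4 call, at chr6:3258951, had a partner at 180 bp. All 4 chaperone genes of the core were thus called at an annotated start or a gene end, against 2 by the gene end alone. PSMG2 held 6 calls, the most of any member.

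PSMD5 and PSMG1 are the first of each chaperone group by alphabet, on the reverse strand at chr9:120842873-120843072 and chr21:39183402-39183601. PSMD5 shows an antioxidant response element 134 bp before the annotated start and a YY1 match from 10 bp after it, on either side of the called C. In PSMG1 the printed stretch has the called C as its only capital, since its antioxidant response element lies 183 bp and its CCAAT box 235 bp before the start.
PSMD5: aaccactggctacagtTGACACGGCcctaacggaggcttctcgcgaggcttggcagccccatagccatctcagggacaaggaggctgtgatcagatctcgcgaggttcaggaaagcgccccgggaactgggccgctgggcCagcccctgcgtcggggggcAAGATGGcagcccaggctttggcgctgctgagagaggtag
PSMG1: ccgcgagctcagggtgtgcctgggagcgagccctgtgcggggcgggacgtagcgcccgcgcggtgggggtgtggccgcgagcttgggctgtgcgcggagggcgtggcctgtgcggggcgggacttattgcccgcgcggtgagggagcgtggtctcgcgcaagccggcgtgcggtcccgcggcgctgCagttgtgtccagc

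Of the activators and the inhibitor, 3 of 5 genes had a start call (60%, 23.1 to 88.2). That interval includes the 41.4% of all protein-coding genes. PSME2, a subunit of the interferon-inducible activator PA28, was called at chr14:24146610, exactly at the gene end from which it is transcribed, with an opposite call 910 bp upstream that starts RNF31, a ubiquitin ligase gene. PSME3, the nuclear activator PA28-gamma, was called at chr17:42833419, 22 bp inside, with a partner 38 bp upstream, the closest of any member. PSME4, the activator PA200, was called at chr2:53971017, 24 bp outside its end, with a partner at 96 bp that starts ACYP2. PSME1, which forms the same ring as PSME2, had only an opposite call 180 bp outside its start. PSMF1, named as a proteasome inhibitor, had an opposite call 134 bp upstream of an annotated start 5339 bp inside the gene, and no call of its own strand. LOC105372493, a gene of the other strand, starts 154 bp upstream of a PSMF1 start and was called. Whether the opposite call is the start of LOC105372493 was not tested.

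PSME2 is printed as the first called activator by alphabet, chr14:24146561-24146760 on the reverse strand. The called G is its only capital, because its antioxidant response element lies 175 bp before the start, upstream of the printed stretch.
PSME2: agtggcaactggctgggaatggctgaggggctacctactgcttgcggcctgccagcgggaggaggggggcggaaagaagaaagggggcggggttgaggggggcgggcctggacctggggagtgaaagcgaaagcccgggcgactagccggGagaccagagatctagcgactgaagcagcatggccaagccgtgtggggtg

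The genes outside the proteasome that match by symbol were both called. PSMC3IP, a recombination factor, was called at chr17:42577680 with a partner at 158 bp, and PSME3IP1 at chr16:57186039 with a partner at 274 bp that starts RSPRY1. Without them, 33 of 48 members had a start call. The gene table also holds 52 pseudogenes with symbols of the same form, and 0 of these had a start call. The share of all pseudogenes with a start call was not counted, so that this count has no background beside it. How reads that match several places were treated is not known here.

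Start calls of members lay a median of 12 bp inside the gene end (quartiles 0 to 48.5, range -24 to 335, n = 35), and those of all protein-coding genes a median of 4 bp inside (quartiles -1 to 32, n = 8207). The 95% interval of the median was 2 to 44 bp for members and 3 to 4 bp for all genes, so that the intervals overlap. Within 10 bp of the end stood 13 of 35 member calls (37.1%, 23.2 to 53.7), against 45.9% of all genes with a start call, and within 50 bp 26 of 35 (74.3%, 57.9 to 85.8), against 77.6%. Outside the gene stood 8 of 35 (22.9%, 12.1 to 39.0), against 32.1%. Measured from annotated starts, the medians were 12 bp for 34 members and 2 bp for all protein-coding genes with such a call.

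**Figure D3:**
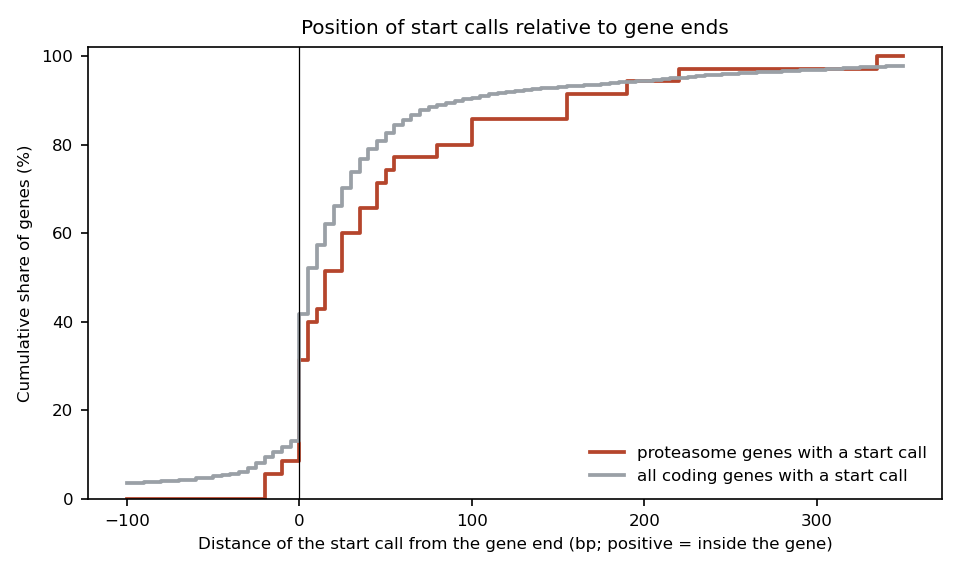
The lines give the cumulative percentage of genes whose start call lies at or below each distance from the gene end in bp, positive inside the gene, for 35 members (red) and 8207 protein-coding genes (grey). Each gene is drawn by the start call nearest to its end. The red line runs below the grey one from the left edge at -100 bp to 185 bp, and its median is 12 bp against 4 bp.

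An opposite-strand call within 300 bp upstream, called a divergent partner, was present at 17 of 35 member starts (48.6%, 33.0 to 64.4), close to the 50.7% of all protein-coding genes with a start call. By role, 7 of 11 called core genes had one, against 4 of 14 called genes of the base and lid, and this difference was not tested. It depends on the limit of 300 bp. Opposite calls lay 303 to 386 bp upstream at PSMD2, PSMD3, PSMD8, PSMC5 and PSMC4. In the core they lay 358 and 413 bp upstream at PSMA5 and PSMA7. The median distance of the divergent partner was 140 bp for members (quartiles 108 to 166, range 38 to 274) and 153 bp for all protein-coding genes (quartiles 110 to 210). Out to 1000 bp upstream, 27 of 35 members had an opposite call (77.1%, 61.0 to 87.9), against 65.2% of all protein-coding genes. The partner was the start of another gene for 6 of 35 members (17.1%, 8.10 to 32.7), namely PSMA1, PSMA2, PSMD5, PSMG3, PSME4 and PSME3IP1, against 23.4% of all protein-coding genes. An opposite call within 300 bp downstream, a convergent partner, was seen at PSMA4 and PSMC5 alone (5.71%, 1.58 to 18.6), against 8.12%.

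Annotated starts of a gene of the other strand lay within 1000 bp upstream of 12 of 44 members (27.3%, 16.3 to 41.8), against 22.1% of all protein-coding genes in the promoter table. In 7 of these 12 arrangements the neighbour was called, and the neighbours were MRPL32, LOC124904720, FTSJ3, CEP76, RNF31, ACYP2 and, beside the uncalled PSMF1, LOC105372493. Uncalled neighbours were SIRT3, 45 bp from PSMD13, HPD, 179 bp from PSMD9, ATG4A, 236 bp from PSMD10, PSMB8-AS1, 39 bp from an inner start of PSMB8, and TAP1, 488 bp from PSMB9. At PSMD13 and PSMD9 the proteasome gene was thus called while its head-to-head neighbour was not, although an opposite call stood 634 bp upstream of the PSMD13 call, beyond the 500 bp allowed for SIRT3.

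Of the 10 members in the promoter table with no call of their own strand at an annotated start, 4 nevertheless had an opposite-strand call within 500 bp upstream (40.0%, 16.8 to 68.7), against 5.92% of all protein-coding genes without such a call. These were PSMB4, PSMD14, PSME1 and PSMF1, at 118, 70, 180 and 134 bp, of which PSMF1 has a called head-to-head neighbour, LOC105372493. PSMD4, which has no strand in that table, had a reverse call alone, outside its lower end. Since a call depends on a threshold that is not given in the sources used here, these genes cannot be told apart from genes whose own start fell just below it. Genes with no call of either strand are counted in both shares, and they were rarer among members. A call in or near the gene was present for 90.0% of all 50 members, against 52.6% of all protein-coding genes. The contrast of 40.0% with 5.92% therefore does not show that an opposite call without an own call is a trait of members.

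Distal pairs, meaning divergent calls more than 1000 bp from any gene end, lay within 50 kb of the start call of 3 of 35 members (8.57%, 2.96 to 22.4), against 10.5% of all protein-coding genes with a start call. They were 43.5 kb from PSMA2, 27.7 kb from PSMB5 and, nearest of 2, 33.5 kb from PSMD5. Annotated starts inside genes were not excluded, so that a distal pair can be a promoter. At PSMA6 and PSMG4, which have no call at a gene end, pairs lay 0.102 and 0.09 kb from the calls at their own inner starts. A single call in or near the gene was seen for 14 of 50 members (28.0%, 17.5 to 41.7), against 13.6% of all protein-coding genes. Genes with no call are counted in both shares, and they were rarer among members. Among genes with any call in or near them, a single call was seen for 14 of 45 members and for 2705 of 10425 protein-coding genes. The contrast of 28.0% with 13.6% therefore does not show that single calls are a trait of members.

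Motifs were searched on both strands in the 300 bp promoters, from 250 bp before to 50 bp after the annotated start, of 44 members and 15813 protein-coding genes. A match describes the letters only and is no evidence of binding. None of the motifs contains another, and matches of different motifs were counted separately where they overlapped. The ETS core CGGAAG was found in 25 of 44 member promoters (56.8%, 42.2 to 70.3), against 26.2% of all and 40.1% of all with a call. Among the 34 called members it was found in 21 (61.8%). By role it occurred in 12 of 16 promoters of base and lid genes, with all ATPase genes except PSMC3, and in 6 of 10 of the core. The 25 promoters held 41 matches in all, and 18 members had 1 or more between 50 bp before and 50 bp after the annotated start. PSMA6, PSMC1 and PSMA8 held 3 matches each.

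The antioxidant response element TGACNNNGC, bound by NFE2L1 and NFE2L2 with small MAF proteins, was found in 12 of 44 member promoters (27.3%, 16.3 to 41.8), against 14.4% of all and 16.2% of all with a call. Among the 34 called members it was found in 9 (26.5%). In promoters that begin 150 bp before the start it was found in 9 of 44 (20.5%, 11.2 to 34.5), against 10.7% and 12.3%. Among the 34 called members these shorter promoters held it in 6 (17.6%). The 12 promoters of 300 bp with the element were those of PSMB3, PSMB9, PSMC4, PSMD1, PSMD3, PSMD12, PSMD5, PSMD9, PSMG1, PSME1, PSME2 and PSME4. PSMD3 and PSMD9 held 2 each, and no alpha ring gene in the table held one. The CCAAT box of NF-Y was found in 20 of 44 (45.5%, 31.7 to 59.9), against 36.4% of all and 39.1% of all with a call. The YY1 motif AAGATGG was found in 7 of 44 (15.9%, 7.93 to 29.4), against 6.58% and 9.53%, and 5 of these 7 matches began 10 to 42 bp after the annotated start. They lie in PSMA2, PSMB4, PSMC1, PSMD11 and PSMD5. The motif holds the letters ATG of a start codon, and whether these matches are coding was not tested.

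The GC box and the NRF1 motif lay between the share of all promoters and that of promoters with a call. The GC box GGGCGG was found in 30 of 44 (68.2%, 53.4 to 80.0), against 60.0% of all and 75.9% of all with a call. The NRF1 motif GCGCANGCG was found in 5 of 44 (11.4%, 4.95 to 24), against 11.3% and 18.6%. GATA motifs (AGATAA and its forms with T as the first or G as the last base) were found in 4 of 44 (9.09%, 3.59 to 21.2), against 19.1% and 12.3%, in PSMB3, PSMB5, PSMC1 and PSMC6. In promoters that begin 150 bp before the start the share of members was also 9.09%, which was below the 11.5% of all but above the 6.59% of all with a call. GATA1 binds this motif in erythroid cells, and is known for its role in red cell genes. TATAAA was found in 5 of 44 (11.4%, 4.95 to 24), against 9.30% and 4.35%, and its matches in PSMA8, PSMC1, PSMC2, PSMC5 and PSMD8 all began at least 127 bp before the annotated start. In the shorter promoters it was found in PSMC1 alone (2.27%), against 6.70% of all and 2.58% of all with a call, so that its share turned from above to below both. PSMB10 and PSMF1 held none of the motifs. Members had a median G+C content of 62.0% and a median of 22 CpG, against 63.3% and 23 for all protein-coding promoters and 66.0% and 28 for all with a call.

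**Figure D4:**
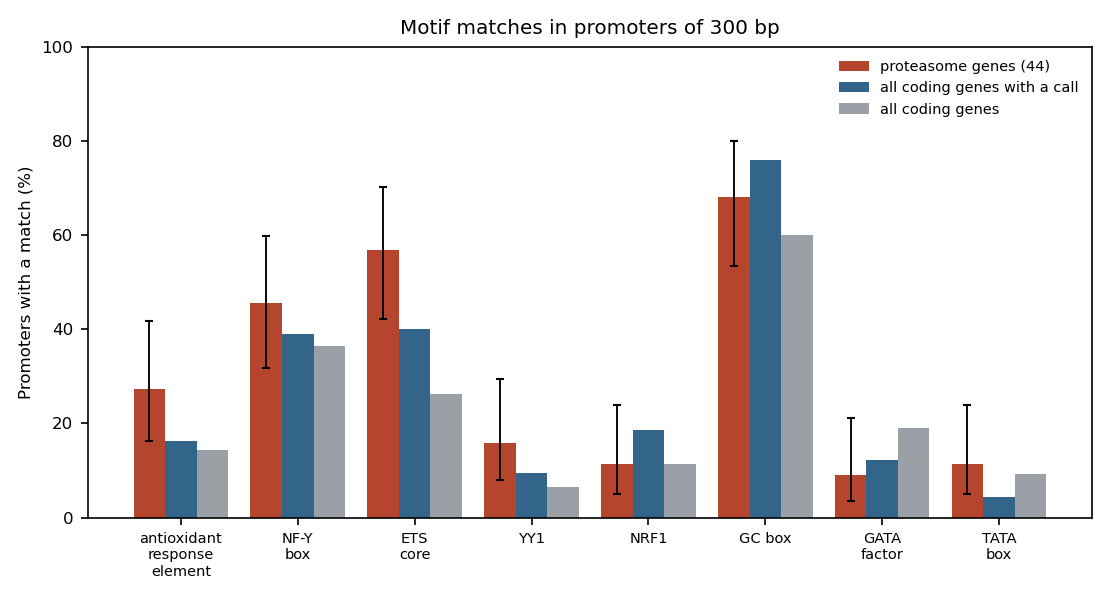
Bars give the percentage of 300 bp promoters with at least 1 match to each motif for 44 proteasome genes (red, with 95% Wilson intervals), all protein-coding genes with a call (blue) and all protein-coding genes (grey). The ETS core shows 56.8% in proteasome genes, against 40.1% and 26.2%.

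**Figure D5:**
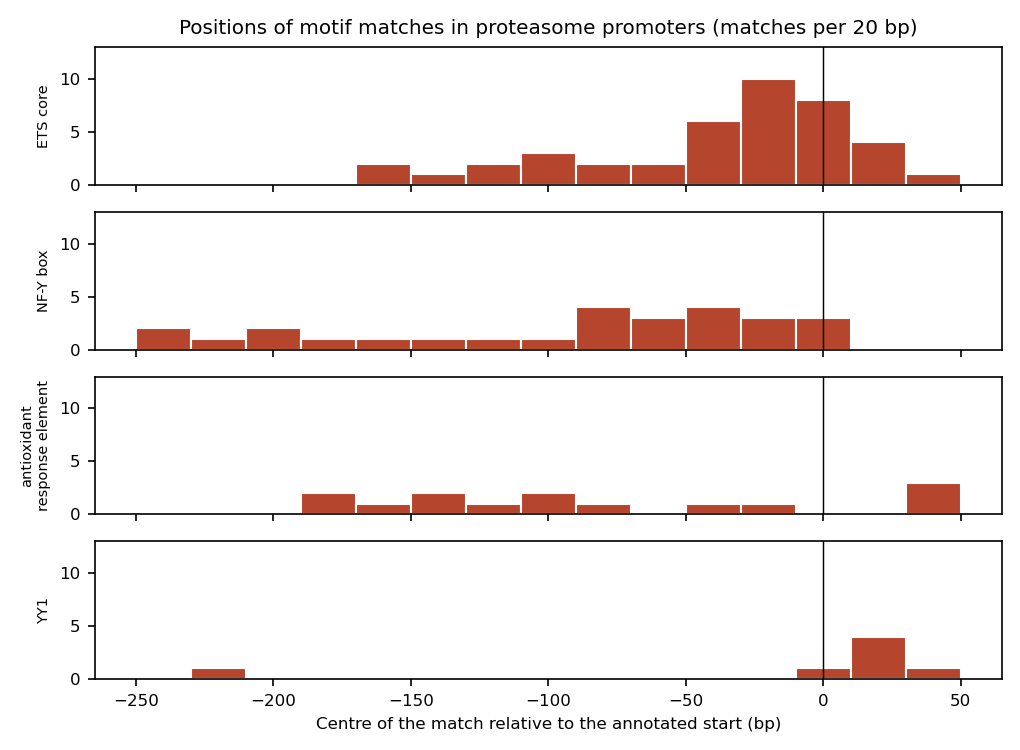
Histograms count motif matches in the promoters of 44 proteasome genes in steps of 20 bp, by the centre of the match in bp from the annotated start (vertical line). ETS cores crowd within 50 bp of the start, with 41 matches in all, and 5 of 7 YY1 matches begin just after it.

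The bases at the call could be read for 30 members with a call inside the promoter table. The called base was C in 12, A in 9, G in 9 and T in 0 of them, whereas among 6488 protein-coding genes it was C in 51.2%, A in 23%, G in 23.4% and T in 2.34%. In metazoan promoters the first base of the RNA is often a purine that follows a pyrimidine. At 10 members the call fell on the C of a CA step (33.3%, 19.2 to 51.2), against 36.8% of all genes, so that the purine stood 1 base after the call. At 14 members the call fell on an A or G that follows a T (46.7%, 30.2 to 63.9), against 29.5%. Allowing either reading, 26 of 30 members had a pyrimidine followed by a purine at the call (86.7%, 70.3 to 94.7), against 77.9%. Called positions are therefore to be read to about 1 base. The exceptions were PSMD7, PSMD9, PSME2 and PSME3.

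Windows around the call show these kinds of start, each with 10 bases on either side and the called base in capitals, from RefSeq, GRCh38.p14, on the strand of the gene. Those of PSMA3, PSMA4, PSMA5 and PSMC6 have T before a called purine, and those of PSMA6, PSMC2, PSMD2 and PSMG4 have the called C before A. PSMD7 and PSME3 have a G before a called A. In the order printed they lie at chr14:58244836-58244856, chr15:78540439-78540459, chr1:109426407-109426427, chr14:52707192-52707212, chr14:35292377-35292397, chr7:103347669-103347689, chr3:184299243-184299263, chr6:3258941-3258961, chr16:74296826-74296846 and chr17:42833409-42833429, with PSMA5 on the reverse strand and the others on the forward strand.
PSMA3: gcctgttactAgtttgcggca
PSMA4: gggccatattAgcagcggtta
PSMA5: ccgtgtgggtGagttggctgc
PSMC6: catcccctatGagagacggct
PSMA6: accccggaagCagtcgctgca
PSMC2: gctgtgtaatCattaaggagc
PSMD2: agcgggccggCagtggcggcg
PSMG4: gtgctcgctcCatcgggtctg
PSMD7: actgggcctgAaagggtaccg
PSME3: gtgagcggcgAaagccgggag

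Other genes of the pathway, from a list that is not part of the symbol rule, had start calls at 27 of 35 (77.1%, 61.0 to 87.9), against the 41.4% of all protein-coding genes. The subunits SEM1 and ADRM1 and the core assembly factor POMP were all called, at 0, 80 and 6 bp inside their ends, each with a divergent partner. Of 10 genes whose products bind the proteasome, 9 were called, among them AKIRIN2, which brings it into the nucleus, ECPAS, MIDN and PAAF1. The uncalled one was UCHL5, a deubiquitinase, whose call stood 21 bp after an annotated start instead. Of 8 regulators of proteasome genes, 7 were called, among them the protease gene DDI2, which activates NFE2L1, and MAFF, MAFK and NFE2L1. NFE2L1, the transcription factor that restores proteasome genes after inhibition, had 3 start calls. MAFG was uncalled at its gene end and was called 1 bp before an annotated start.

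Among shuttle factors, which carry ubiquitinated proteins to the proteasome, 4 of 5 were called, among them RAD23B, UBQLN1 and UBQLN2, and UBQLN4 was not. Of 6 ubiquitin genes and activating enzymes, 4 were called, among them UBA1, UBA6 and UBB. RPS27A, which encodes a ubiquitin fused to a ribosomal protein, had no start call at its gene end but a call 1 bp before an annotated start. The antigen processing genes TAP1, TAP2 and TAPBP, partners of the inducible proteasome, had 0 start calls of 3, and all 3 lie in the same run of chromosome 6 without calls as PSMB8 and PSMB9.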

How the data were processed

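PRO-cap was measured in 2 biological replicates of wild-type HUDEP-2 cells, per the labels. BWA 0.7.16a, SAMtools 1.17, deepTools 3.5.4, Picard and the build hg38 are listed, per the submitters' processing notes. The caller's version, its threshold, the alignment settings and the combining of replicates were not given in the sources used. The authors deposited 1 list of called positions per strand. The position column holds other values than measurements, deposited as 1-base coordinates, and the deposited score column is 0 in every row, which leaves no strength or depth to use.

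Genes came from a RefSeq table of GRCh38.p14, and strands, annotated starts and promoter sequences from a RefSeq promoter table of the same assembly. Counts used the 26332 calls on chromosomes 1 to 22 and X, and 63 others were left out. Where a gene had several promoters, the one nearest to a call of its strand was used. Divergent partners were sought from 0 to 300 bp upstream, taking the nearest call of the other strand. Tables were computed with Python 3.11.15, pandas 2.3.3, NumPy 2.4.6 and SciPy 1.17.1, and the matching of calls to genes was tested on simulated data. There is 1 group and no value per replicate, so that no test between conditions and no spread between replicates could be had, and shares carry 95% Wilson intervals. The members, roles, pathway list, marker list and motifs were chosen with earlier results of these data known.

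All members were named. Of other pathway genes, those without a start call and the first 4 by alphabet of each class with one were named, and the others are only counted. Some items that this rule names are not reported here. Printed promoters are the first by alphabet of each role with a call inside the table, a head-to-head pair and a member with an antioxidant response element. Alternatives were windows of 200 and 1000 bp, partner limits of 150 and 500 bp, annotated starts, shorter promoters, the call farthest upstream, any call in or near the gene, and members without the symbol matches or without PSMB8 and PSMB9. Counting by gene end or annotated start was chosen after seeing the data.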

Additional observations from a re-analysis of the deposited data

Results flagged for a closer look

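Calls on alternate sequences of chromosome 6 numbered 11, over 5 such sequences, and lie outside the calls used for the comparisons. They are of interest because PSMB8 and PSMB9 lie in a gap of 5.08 Mb without calls on the main chromosome 6 sequence. Whether any of the 11 belongs to a proteasome gene was not tested.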

How the results depend on the processing

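Of 66 alternatives, 62 stayed within 1.5 times the reported count or, for the distance, within its interval. That bound concerns members only and does not measure whether a comparison with all genes holds. GATA motifs stayed within it at 9.09% of members, while promoters of all genes with a call went from 12.3% to 6.59%. Taking the call farthest upstream could change PSMD13 alone, the only member with more than 1 start call. Start calls were found for 33 of 50 members with a window of 200 bp, 36 with 1000 bp and 34 of 44 by annotated starts. The 4 that moved further were the partner limit of 150 bp, which left 10 of 35 members with a divergent partner in place of 17, the beta ring by annotated starts only, with 2 of 4 genes in place of 5 of 7, the core assembly chaperones by gene end or annotated start, with 4 of 4 in place of 2, and TATA matches in the promoter from 150 bp before the start, with 1 in place of 5. The promoter table covers 4 of 7 beta ring genes, which bounds that count. With a partner limit of 500 bp, 24 of 35 members had a partner. The share of all protein-coding genes was not computed at limits of 150 and 500 bp, so that these 2 counts have no background beside them. The median distance to the gene end was 12 to 17 bp over the alternatives run. No paired analysis was possible because the calls carry no replicate and there is 1 group, and for the same reason no replicate could be left out in turn. Depth behind the calls is unknown, so that genes without a call cannot be ranked.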
